A study of Mus musculus with 10 samples.

Results

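The glutathione transferases and UDP-glucuronosyltransferases are the gene families that attach glutathione or glucuronic acid to reactive and fat-soluble compounds in the liver. They were taken as the probe sets whose annotated gene symbols all begin with Gst plus a class letter and number, Mgst plus a number, or Ugt plus a number, including probe sets shared by several such symbols. Of 20718 named rows on the array, 37 were members, with 1 row per gene or per shared set of genes, read from the probe set of highest mean. These rows came from 39 probe sets and carry 44 symbols. The single-symbol rows number 33, and 4 rows are shared: Gstp1 with Gstp2, Ugt2a1 with Ugt2a2, Ugt3a1 with Ugt3a2, and 8 genes of the Ugt1a locus. Of the 37, 23 are glutathione transferases and 14 are UDP-glycosyltransferases.

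Total liver RNA of 5 Nr1d1-/- mice (KO) and 5 wild-type mice (WT) was hybridised to Affymetrix Mouse Gene 1.0 ST arrays, 1 mouse to an array. Nr1d1 encodes Rev-erb alpha, a nuclear receptor that binds DNA and represses transcription as part of the circadian clock. Both groups were C57Bl/6 males of 10 to 12 weeks on normal chow under 12 h of light and 12 h of darkness, killed at ZT10, which is 10 h after the lights came on. The KO line had been backcrossed for at least 7 generations, whereas the WT mice were purchased, so genotype and origin of the mice cannot be told apart. All values are deposited RMA intensities taken to log2, and differences are KO minus WT on that scale. A difference was called at an adjusted p under 0.05 in limma's moderated test, with Benjamini-Hochberg adjustment over all 20718 rows.

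Glutathione transferases join the thiol of glutathione to electrophiles, and the products leave the cell through export pumps. The soluble enzymes fall into classes named by Greek letters (alpha, mu, pi, theta, kappa, omega, zeta), and a separate microsomal family sits in membranes. UDP-glucuronosyltransferases lie in the endoplasmic reticulum and move glucuronic acid from UDP-glucuronic acid to bilirubin, steroids, bile acids and drugs. Many of these genes are expressed in hepatocytes at high level, and several respond to the xenobiotic receptors CAR and PXR, to the antioxidant factor NRF2, or to growth hormone.

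Array medians ran from 156 to 165 intensity units. The only Nr1d1 probe set averaged 9.92 ± 0.45 in KO livers and 9.78 ± 0.16 in WT livers (SD, n = 5 each), a difference of 0.14 (limma, adjusted p = 0.803). It checks nothing, because no source used here places it inside or outside the deletion. Arntl, a clock gene that Rev-erb alpha represses, averaged 9.43 ± 0.29 in KO livers and 7.30 ± 0.24 in WT livers (SD, n = 5 each; limma, adjusted p = 3.7e-06). No hepatocyte marker of a list of 10 was called in limma, and 1 had an unadjusted p under 0.05. Their summed intensity was 120434 to 126447 in KO livers, against 122311 to 124076 in WT livers.

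Of the 37 transferase rows, 13 were called, or 35.1%, against 5.51% of all named rows. Some called rows read the same gene, since Gstp1 and Ugt3a1 each have a called row alone and another in a shared set. When only rows with a mean log2 above 6 were fitted, 14 of 33 members and 1203 of 16405 rows were called. Higher in KO were 9 members, where 3.09% of all rows were higher, and lower in KO were 4, where 2.42% of all rows were lower. The glutathione transferases held 7 of the increases and 3 of the decreases, and the glycosyltransferases held 2 of the increases and 1 of the decreases. An unadjusted p under 0.05 was found in 21 of the 37 members and in 17.3% of all rows, the share against which such counts in the gene lists can be set. The median difference of the 37 members was 0.01, and so was that of all rows. The median size of a difference, regardless of its sign, was 0.16 in the members and 0.06 in all rows. In 17 members the 5 KO values and the 5 WT values did not overlap, where 7.00% of all rows showed such a gap. KO lay above in 10 of them, against 3.92% of all rows, and below in 7, against 3.08% of all rows. The increases lay in the mu, theta and kappa classes and the Ugt3 family, and the decreases in the pi and alpha classes and the Ugt2 family.

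**Figure D1:**
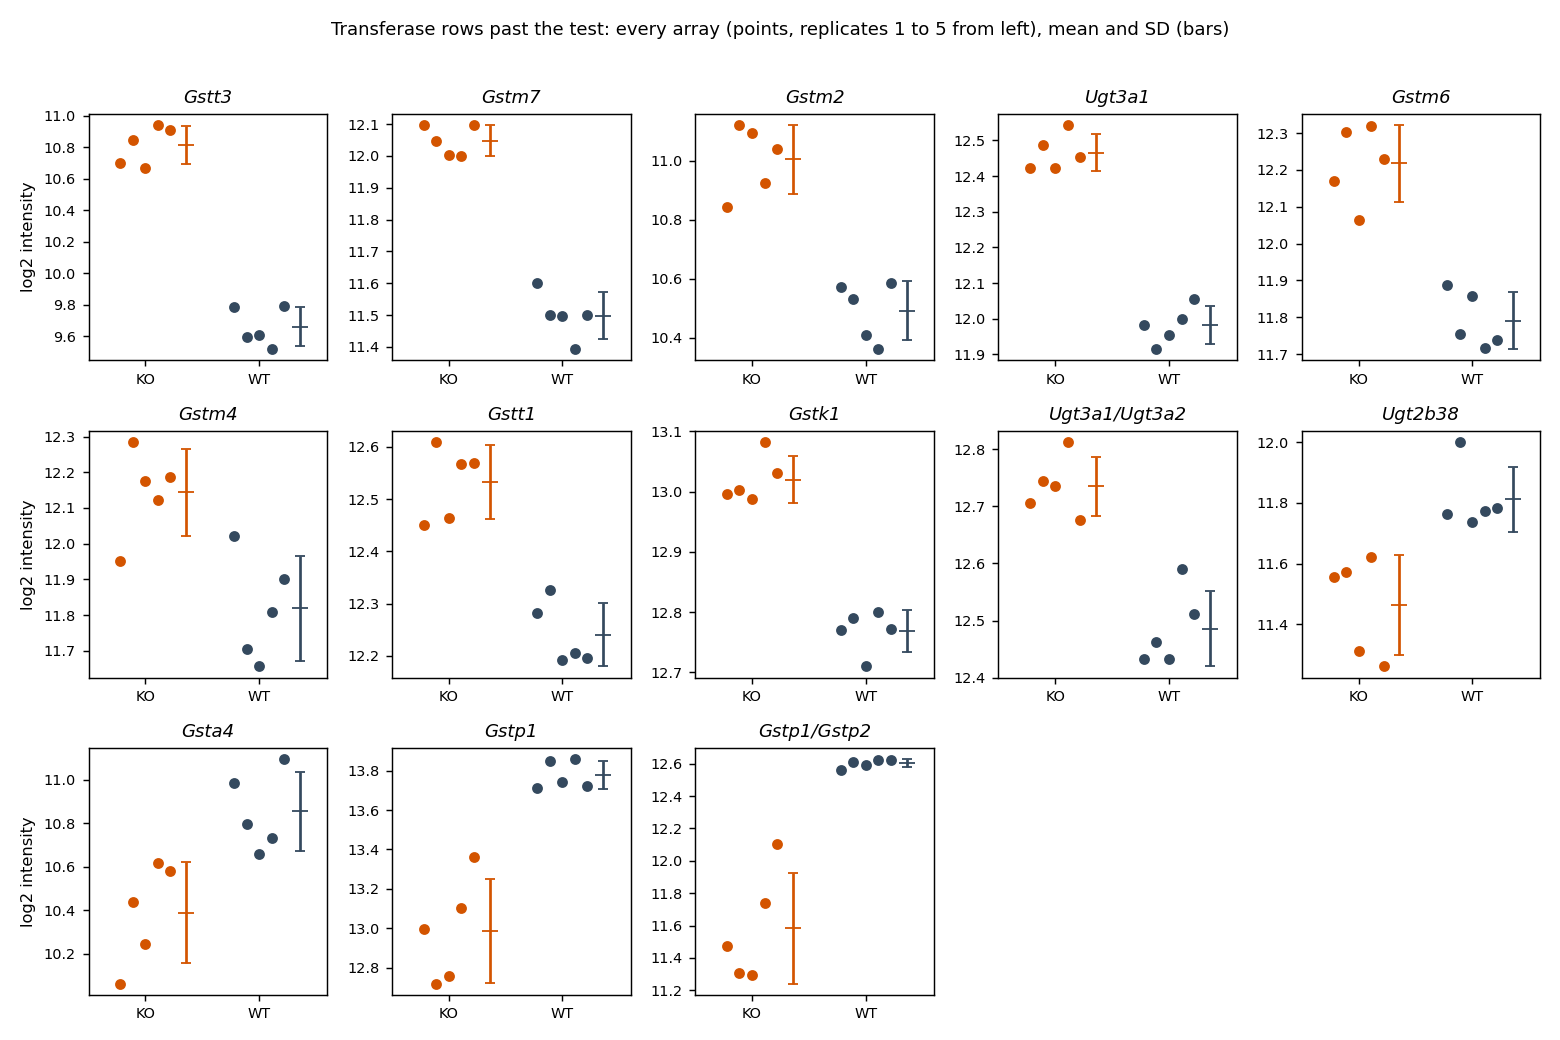
Log2 intensity (vertical axes, a scale of its own in each panel) of the 13 called transferase rows, with KO livers left and WT livers right in each panel. Points are single arrays and bars are the mean with the SD (n = 5 each). In 12 panels the groups do not overlap, and in the Gstm4 panel KO replicate 1 lies at 11.95, below WT replicate 1 at 12.02.

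With all 10 arrays, the largest difference among the 37 rows was that of Gstt3, although a second probe set of Gstp1 and Gstp2 fell by 1.18. Gstt3, a theta-class transferase, read 10.70, 10.85, 10.67, 10.94 and 10.91 in the 5 KO livers, against 9.79, 9.60, 9.61, 9.52 and 9.80 in the 5 WT livers. The lowest KO value stood 0.88 above the highest WT value. The difference was 1.15 (SE 0.073, 95% interval 1.00 to 1.31), which is 2.23-fold (limma, adjusted p = 2.3e-06). Gstt1, the theta enzyme best known for handling small halogenated compounds such as dichloromethane, read 12.45, 12.61, 12.46, 12.57 and 12.57 in KO livers and 12.28, 12.33, 12.19, 12.21 and 12.20 in WT livers. Here too the groups were apart, by a smaller step of 0.29 (SE 0.049), or 1.22-fold (limma, adjusted p = 0.00398).

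The other theta genes did not pass. Gstt2 scattered widely in KO livers, with 8.67, 9.40, 9.89, 9.54 and 9.81, against 9.10, 8.97, 8.83, 9.37 and 9.31 in WT livers. The KO SD of 0.48 was about the size of the difference of 0.35, and the groups overlapped through KO replicate 1, the lowest of the 10 arrays (limma, adjusted p = 0.426). Without KO replicate 1 the Gstt2 difference had an adjusted p of 0.0348 in limma. Gstt4 differed by -0.02 (limma, adjusted p = 0.891). Its means of 6.12 in KO livers and 6.14 in WT livers lay near the lowest first quartile of any array (6.00), which limits what this difference shows. The 4 theta genes lie on chromosome 10 in the order Gstt3, Gstt1, Gstt4 and Gstt2, so both called genes stand at the Gstt3 end. The promoter of Gstt3 is shown because this row had the largest difference of the 37 with all 10 arrays, and it holds none of the 3 motifs marked by capitals in the other promoters printed here (AGGTCA, TGACNNNGC and TGAGTCA, on either strand).
Gstt3 (chr10:75781373-75781672, minus strand): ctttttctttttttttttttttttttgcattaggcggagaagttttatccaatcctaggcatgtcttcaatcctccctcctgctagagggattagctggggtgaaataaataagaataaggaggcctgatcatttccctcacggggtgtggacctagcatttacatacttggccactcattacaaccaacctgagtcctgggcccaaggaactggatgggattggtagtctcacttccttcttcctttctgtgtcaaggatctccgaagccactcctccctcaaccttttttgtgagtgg

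Promoter windows come from RefSeq on GRCm38.p6 and run from 250 bases before to 50 bases after an annotated start. They are printed 5′ to 3′ on the gene's own strand, with motif matches in capitals. A window was found for 40 of the 44 symbols, giving 49 windows, since some genes have several starts. A motif match describes the letters only.

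Mu-class transferases act on epoxides and other electrophiles. Of their 7 rows 4 were called, each of these 4 higher in KO, and the median difference of the 7 was 0.33. Gstm7 read 12.10, 12.05, 12.00, 12.00 and 12.10 in KO livers, against 11.60, 11.50, 11.50, 11.39 and 11.50 in WT livers. The arrays of each group lay close together and the gap between the groups was wide, with a difference of 0.55 (SE 0.048), or 1.46-fold (limma, adjusted p = 4.2e-05). Gstm2 read 10.85, 11.12, 11.09, 10.93 and 11.04 in KO livers and 10.57, 10.53, 10.41, 10.36 and 10.59 in WT livers. Its groups did not overlap, and the difference was 0.51 (SE 0.066), or 1.43-fold (limma, adjusted p = 0.000668). Gstm6 read 12.17, 12.30, 12.06, 12.32 and 12.23 in KO livers, against 11.89, 11.75, 11.86, 11.72 and 11.74 in WT livers. It was also higher on every KO array than on any WT array, by 0.43 on average (SE 0.059), or 1.35-fold (limma, adjusted p = 0.00106).

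Gstm4 was the mu gene nearest the threshold. It read 11.95, 12.28, 12.17, 12.12 and 12.19 in KO livers, against 12.02, 11.71, 11.66, 11.81 and 11.90 in WT livers, a difference of 0.33 (SE 0.078; limma, adjusted p = 0.0304). The groups overlapped at KO replicate 1 and WT replicate 1. The Gstm4 call was lost when any 1 of KO replicates 2 to 5 or WT replicates 2 to 4 was left out, with adjusted p up to 0.0772, and when arrays were centred on their medians (adjusted p = 0.0517).

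The mu genes that did not pass include the abundant Gstm1. Gstm1 averaged 13.26 ± 0.031 in KO livers and 13.21 ± 0.031 in WT livers (SD, n = 5 each), with a 95% interval of the difference of -0.04 to 0.13 (limma, adjusted p = 0.645). Gstm3 differed by 0.16 (adjusted p = 0.201 in limma), and its second probe set by 0.31 (adjusted p = 0.160 in limma). Gstm5, known mainly from brain and testis, differed by 0.01 (adjusted p = 0.971 in limma). The mu genes lie on chromosome 3 in the order Gstm5, Gstm7, Gstm6, Gstm3, Gstm2, Gstm1 and Gstm4, with called and uncalled genes mixed along it. Mu genes are close paralogs, and how far a probe set of one reads its neighbours was not tested, so the split between them is uncertain.

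One annotated start of Gstm7 has a match to TGACNNNGC, the core of the antioxidant response element, and its window is printed to show it. The match begins 129 bases before that start. Among all 32851 windows 12.39% hold this core on at least 1 strand, and among the 49 member windows 4 do (Gsta3, Gstm5, Gstm7 and Mgst1), of which only Gstm7 was called.
Gstm7 (chr3:107931565-107931864, minus strand): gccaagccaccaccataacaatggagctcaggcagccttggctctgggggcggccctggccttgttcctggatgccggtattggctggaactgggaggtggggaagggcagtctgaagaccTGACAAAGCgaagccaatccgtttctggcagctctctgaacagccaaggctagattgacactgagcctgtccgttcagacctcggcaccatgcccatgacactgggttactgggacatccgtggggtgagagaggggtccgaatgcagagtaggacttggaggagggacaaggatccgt

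**Figure D2:**
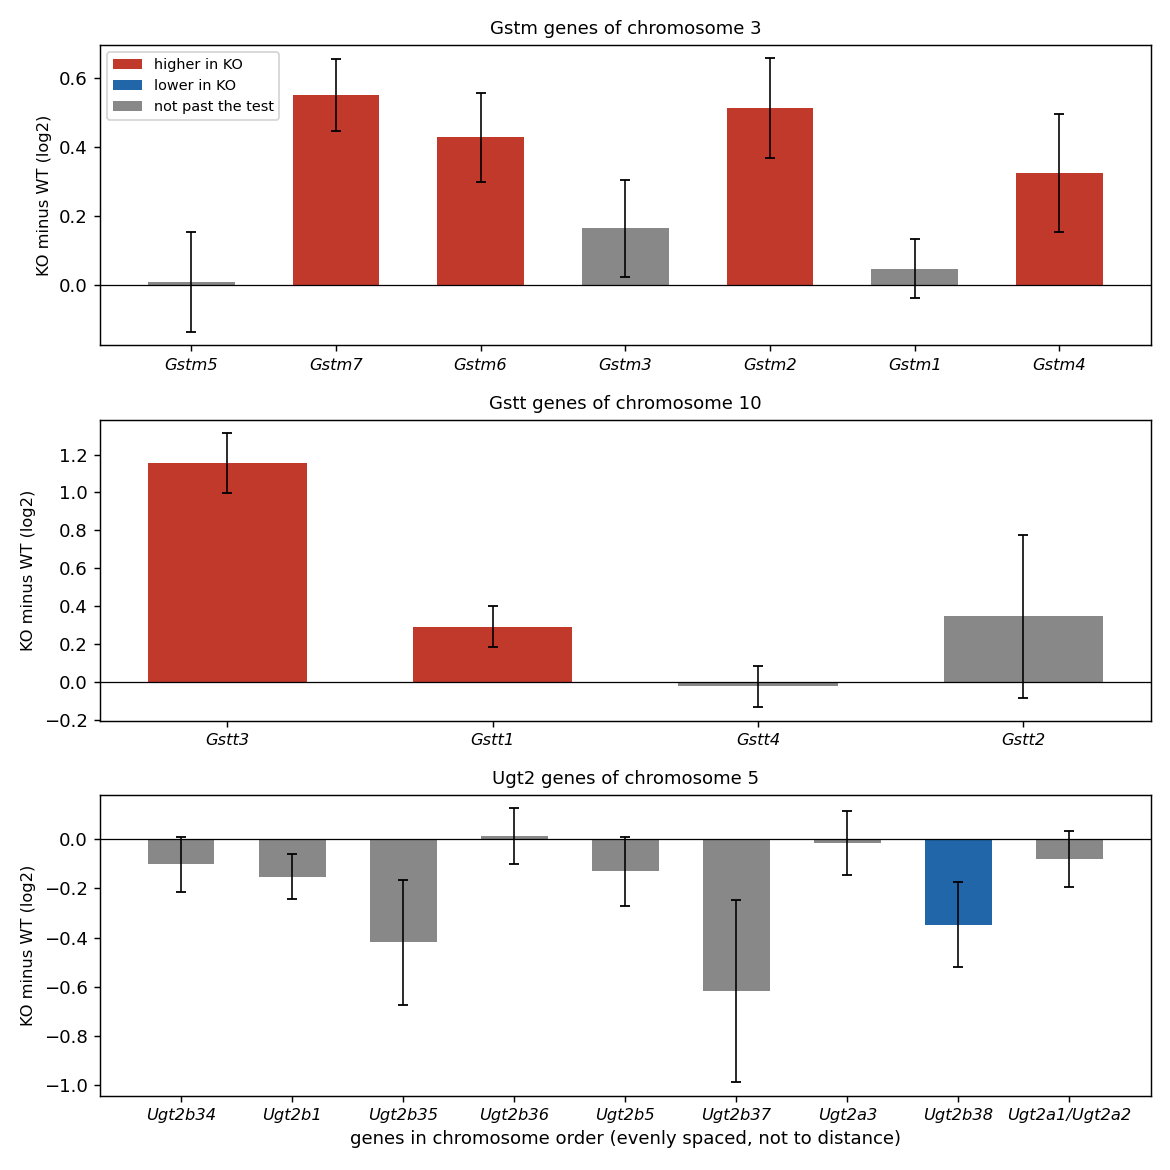
KO minus WT (log2 intensity, vertical axes) with 95% intervals for the Gstm genes of chromosome 3, the Gstt genes of chromosome 10 and the Ugt2 genes of chromosome 5, in chromosome order. The theta cluster runs from 1.15 at Gstt3 to -0.02 at Gstt4, the mu cluster from 0.55 at Gstm7 to 0.01 at Gstm5, and the Ugt2 cluster from 0.01 at Ugt2b36 to -0.62 at Ugt2b37.

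Gstk1, the kappa-class enzyme of mitochondria and peroxisomes, was higher in KO livers. It read 13.00, 13.00, 12.99, 13.08 and 13.03 in KO livers, against 12.77, 12.79, 12.71, 12.80 and 12.77 in WT livers. The spread within each group was small, and the difference of 0.25 (SE 0.040), or 1.19-fold, passed the test (limma, adjusted p = 0.00302). Its promoter holds AGGTCA on the reverse strand, beginning 141 bases before the start, so the capitals show its complement. AGGTCA is the core that nuclear receptors bind, and 16.26% of all windows hold it.
Gstk1 (chr6:42245685-42245984, plus strand): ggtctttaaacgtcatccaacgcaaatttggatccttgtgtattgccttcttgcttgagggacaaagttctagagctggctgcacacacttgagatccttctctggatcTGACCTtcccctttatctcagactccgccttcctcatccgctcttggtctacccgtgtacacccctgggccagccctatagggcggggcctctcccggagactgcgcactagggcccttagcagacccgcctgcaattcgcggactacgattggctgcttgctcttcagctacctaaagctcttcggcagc

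Of the 3 pi-class rows 2 were lower in KO livers, and both read Gstp1, alone or with Gstp2. Pi-class transferases detoxify small electrophiles such as acrolein, and in mouse liver they are known to be more abundant in males. The row shared by Gstp1 and Gstp2 read 11.47, 11.31, 11.30, 11.74 and 12.11 in KO livers, against 12.56, 12.61, 12.59, 12.62 and 12.62 in WT livers. The WT arrays were almost level, whereas the KO arrays spread over 0.81 and all lay below them. The row fell by 1.02 (SE 0.13, 95% interval -1.30 to -0.74), to 0.494 of the WT level (limma, adjusted p = 0.000608). The row of Gstp1 alone read 12.99, 12.72, 12.75, 13.10 and 13.36 in KO livers, against 13.71, 13.85, 13.74, 13.86 and 13.72 in WT livers. Its groups did not overlap either, and it fell by 0.79 (SE 0.11), to 0.577 of the WT level (limma, adjusted p = 0.000791).

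A second probe set of Gstp1 and Gstp2 gave 9.92, 9.46, 9.44, 10.22 and 10.49 in KO livers, against 11.04, 11.09, 11.00, 11.23 and 11.09 in WT livers. It fell by 1.18 (SE 0.18; limma over every named probe set, adjusted p = 0.00200). On these 3 probe sets KO replicates 2 and 3 were the lowest KO arrays, and replicates 4 and 5 the highest. KO replicates 4 and 5 are, with WT replicate 1, the 3 arrays whose intensities spread most, with interquartile ranges of 2.96, 2.99 and 2.98. Without these 3 arrays the shared row fell by 1.25 (limma, adjusted p = 4.1e-05) and the Gstp1 row by 0.97 (limma, adjusted p = 0.000499), and Gstt3 was higher by 1.11. Gstp3 differed by 0.14, with a 95% interval of -0.10 to 0.39 (limma, adjusted p = 0.616). Gstp1, Gstp2 and Gstp3 lie on chromosome 19 and are close paralogs, so the parts of Gstp1 and Gstp2 in the shared signal cannot be told apart here.

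The promoters of Gstp1 and Gstp2 are printed because their rows fell together. Over an alignment of 319 positions 246 bases are identical, or 77.1%, against 52.3% between Gstp1 and Gstp3. Both hold TGAGTCA, the core that AP-1 and related factors bind, beginning 74 bases before the start of Gstp1 and 89 bases before that of Gstp2. Of all windows 5.2% hold TGAGTCA on at least 1 strand, and of the 49 member windows 6 do (Gstm5, Gstp1, Gstp2, Mgst2, Ugt2a2 and Ugt2b37).
Gstp1 (chr19:4037863-4038162, minus strand): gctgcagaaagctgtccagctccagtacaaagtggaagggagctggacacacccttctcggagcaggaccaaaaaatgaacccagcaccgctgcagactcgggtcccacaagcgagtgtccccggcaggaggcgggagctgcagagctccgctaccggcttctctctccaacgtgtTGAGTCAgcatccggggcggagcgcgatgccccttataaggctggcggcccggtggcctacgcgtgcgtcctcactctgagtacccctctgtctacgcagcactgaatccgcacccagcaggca
Gstp2 (chr19:4042172-4042471, minus strand): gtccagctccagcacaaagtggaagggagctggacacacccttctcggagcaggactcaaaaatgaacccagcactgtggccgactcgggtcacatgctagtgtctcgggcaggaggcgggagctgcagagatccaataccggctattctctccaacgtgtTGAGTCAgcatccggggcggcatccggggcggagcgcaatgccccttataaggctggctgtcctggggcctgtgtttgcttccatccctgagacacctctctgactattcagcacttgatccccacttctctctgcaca

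Gsta4, the alpha-class enzyme that conjugates the lipid peroxidation product 4-hydroxynonenal, was lower in KO livers. It read 10.06, 10.44, 10.25, 10.62 and 10.58 in KO livers, against 10.98, 10.80, 10.66, 10.73 and 11.10 in WT livers. The groups did not overlap, but the highest KO array lay only 0.04 below the lowest WT array. The row fell by 0.47 (SE 0.11), to 0.723 of the WT level (limma, adjusted p = 0.0310). This call was lost when any 1 of KO replicates 1 to 3 or WT replicates 1, 2 and 5 was left out, with adjusted p up to 0.0783.

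Gsta3, the other alpha row, averaged 13.28 ± 0.11 in KO livers and 13.20 ± 0.054 in WT livers (SD, n = 5 each; limma, adjusted p = 0.532). The genes Gsta1 and Gsta2 share their probe sets with symbols outside the naming rule, and so are not members. Those 3 probe sets differed by 0.28 (adjusted p = 0.452 in limma), -0.34 (adjusted p = 0.738) and 0.01 (adjusted p = 0.984).

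None of the 2 omega rows, the zeta row and the 3 microsomal rows was called by limma, and 2 of these 6 had an unadjusted p under 0.05. These were Gsto1, a thioltransferase, which differed by 0.17 (adjusted p = 0.105), and Gstz1. Gstz1, the maleylacetoacetate isomerase of tyrosine breakdown, read 12.24, 12.29, 12.23, 12.37 and 12.23 in KO livers, against 12.15, 12.08, 12.12, 12.20 and 12.19 in WT livers. Its groups did not overlap, with a difference of 0.13 that missed the threshold (limma, adjusted p = 0.155). Mgst1, the main microsomal transferase, averaged 13.32 ± 0.018 in KO livers and 13.36 ± 0.045 in WT livers, and the 95% interval of the difference was -0.12 to 0.05 (limma, adjusted p = 0.742). Mgst3 differed by -0.16 (adjusted p = 0.413 in limma). Gsto2 and Mgst2 were dim, with means below 6.00, the lowest first quartile of any array.

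**Figure D3:**
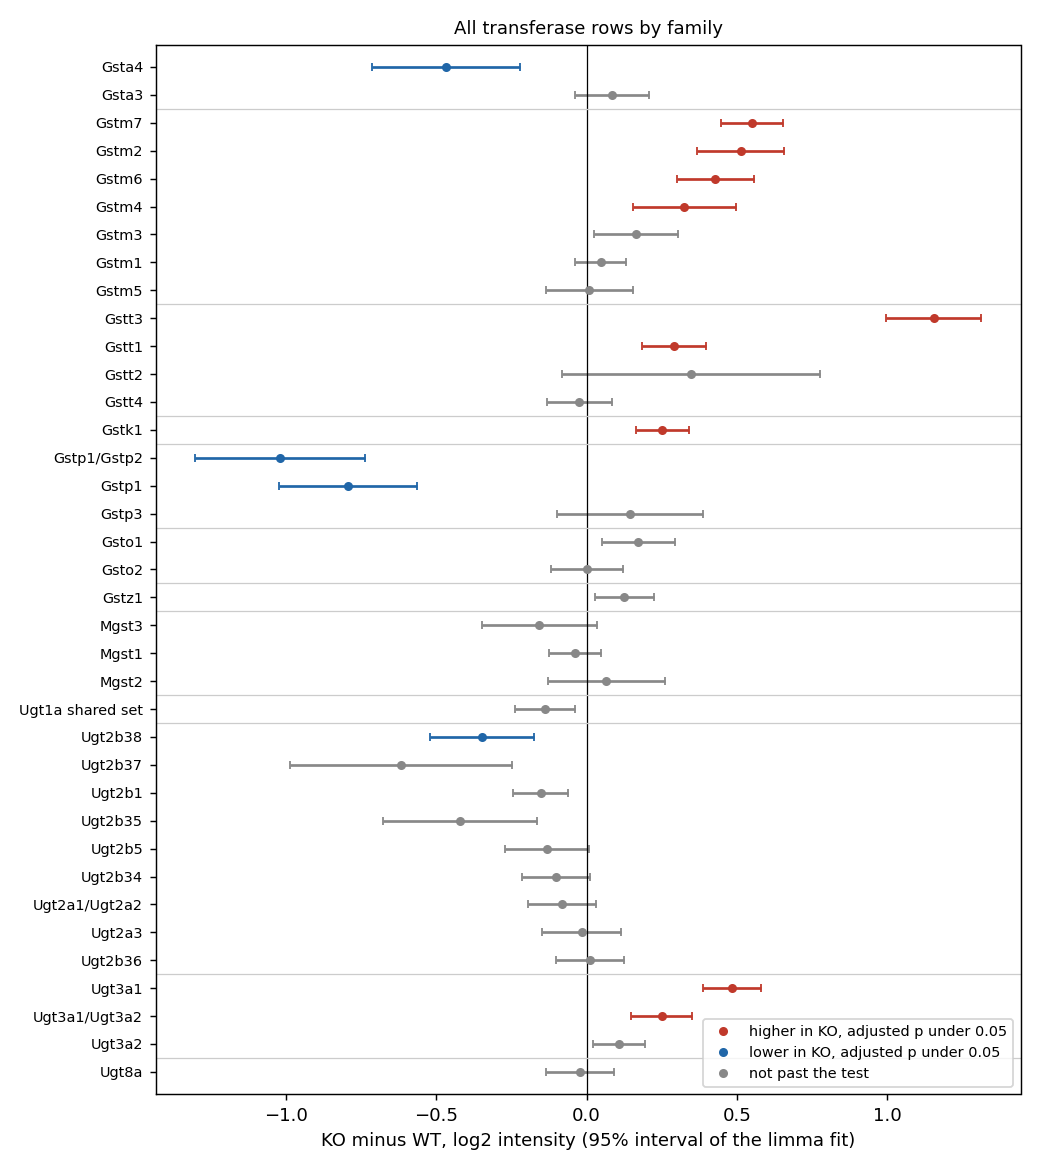
KO minus WT (log2 intensity, horizontal axis) with the 95% interval for each of the 37 transferase rows, grouped by family, with called rows marked by colour. The called rows run from -1.02 at the shared Gstp1 and Gstp2 row to 1.15 at Gstt3.

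The Ugt3 rows stood higher in KO livers. Human UGT3A1 is known to transfer N-acetylglucosamine in place of glucuronic acid. Ugt3a1 read 12.42, 12.49, 12.42, 12.54 and 12.45 in KO livers, against 11.98, 11.91, 11.96, 12.00 and 12.06 in WT livers. No KO array came near the WT range, and the difference of 0.48 (SE 0.045), or 1.40-fold, passed the test (limma, adjusted p = 6.2e-05). The row shared with Ugt3a2 read 12.71, 12.74, 12.74, 12.81 and 12.68 in KO livers, against 12.43, 12.46, 12.43, 12.59 and 12.51 in WT livers. The groups did not overlap, with a difference of 0.25 (SE 0.047; limma, adjusted p = 0.00798). Ugt3a2 alone differed by 0.11, again without overlap, and missed the threshold (limma, adjusted p = 0.162), but passed with trend and robust options in eBayes (adjusted p = 0.0452). Both genes lie on chromosome 15 and are close paralogs, so their separate values are uncertain.

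The Ugt2 family, which glucuronidates steroids, bile acids and drugs, had 9 rows. Limma called 1 of them, and 4 had an unadjusted p under 0.05. The median difference was -0.13, and the highest was 0.01. Ugt2b38 read 11.55, 11.57, 11.31, 11.62 and 11.26 in KO livers, against 11.76, 12.00, 11.74, 11.77 and 11.78 in WT livers. Its groups did not overlap, and it fell by 0.35 (SE 0.080), to 0.786 of the WT level (limma, adjusted p = 0.0244). The Ugt2b38 call was lost without KO replicate 3 or without WT replicate 2, with adjusted p up to 0.0603.

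The next Ugt2 rows lay just outside the threshold. Ugt2b37 read 9.02, 8.85, 8.75, 9.02 and 8.77 in KO livers, against 9.50, 10.22, 9.44, 9.23 and 9.08 in WT livers. All 5 KO arrays lay below the WT arrays, but the WT arrays scattered with an SD of 0.44, and the difference of -0.62 (SE 0.17) had an adjusted p of 0.0571 in limma. Ugt2b1 read 13.16, 13.12, 13.11, 13.23 and 13.21 in KO livers, against 13.36, 13.30, 13.30, 13.28 and 13.35 in WT livers. This smaller difference of -0.15, also without overlap, had an adjusted p of 0.0586 in limma. Ugt2b35 read 11.42, 11.72, 11.03, 11.67 and 11.38 in KO livers, against 11.82, 11.68, 11.82, 12.04 and 11.96 in WT livers. KO replicate 2 lay above WT replicate 2, and the difference of -0.42 had an adjusted p of 0.0601 in limma.

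These 3 rows passed under some other settings. Ugt2b37 passed when any 1 of WT replicates 2, 4 and 5 was left out, Ugt2b35 without KO replicate 2 (limma, adjusted p = 0.036), and Ugt2b1 after a further quantile normalization (limma, adjusted p = 0.0123). Ugt2b36 differed by 0.01, with a 95% interval of -0.10 to 0.12 (limma, adjusted p = 0.958). The remaining rows, Ugt2b5, Ugt2b34, Ugt2a3 and the shared row of Ugt2a1 and Ugt2a2, differed by -0.13 to -0.02. That shared row was dim, with means of 4.48 in KO livers and 4.56 in WT livers, below the lowest first quartile of any array (6.00). The Ugt2 genes lie on chromosome 5 in the order Ugt2b34, Ugt2b1, Ugt2b35, Ugt2b36, Ugt2b5, Ugt2b37, Ugt2a3, Ugt2b38 and the Ugt2a1 and Ugt2a2 row.

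Of the 49 member windows 9 hold AGGTCA, where 16.26% of all windows hold it, and 5 of these 9 belong to Ugt2b genes of this cluster. The stretches of 40 bases around the match are shown because 4 of them have 32 or more bases in common.
Ugt2b36 (chr5:87092556-87092595, minus strand): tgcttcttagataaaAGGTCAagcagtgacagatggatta
Ugt2b5 (chr5:87140338-87140377, minus strand): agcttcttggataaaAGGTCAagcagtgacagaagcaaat
Ugt2b37 (chr5:87254803-87254842, minus strand): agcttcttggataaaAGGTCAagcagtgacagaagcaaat
Ugt2b38 (chr5:87424204-87424243, minus strand): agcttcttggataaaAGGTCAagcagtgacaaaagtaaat
Ugt2b35 (chr5:87000630-87000669, plus strand): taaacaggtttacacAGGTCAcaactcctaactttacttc

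The stretches of Ugt2b5 and Ugt2b37 are identical in their 40 bases. In Ugt2b36, Ugt2b5, Ugt2b37 and Ugt2b38 the core begins 25, 22, 39 and 25 bases before the start, and in Ugt2b35 it begins 215 bases before it. Whole windows of Ugt2b37 and Ugt2b38 share 87.3% of aligned bases, those of Ugt2b5 and Ugt2b38 84.2%, and those of Ugt2b36 and Ugt2b38 63.5%. Genes with this core near the start included Ugt2b38, which was called, and Ugt2b36, which differed by 0.01. Neither the E-box CACGTG, found in 7.15% of all windows, nor the RORE consensus, found in 0.38%, matched any member window. The RORE consensus joins an AT-rich stretch to the nuclear receptor core, and was searched as a fixed pattern stricter than this description. In Ugt2b36, Ugt2b5, Ugt2b37 and Ugt2b38 the bases just before AGGTCA are also AT-rich, but they did not match that pattern. Whether these sites act as such an element was not tested. The D-box TTATGTAA, found in 0.94% of all windows, matched the window of Ugt2b1 alone among the members.

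The 8 measured genes of the Ugt1a locus, among them Ugt1a1 of bilirubin glucuronidation, share 1 row because they share their last exons. It read 11.77, 11.93, 11.93, 11.88 and 11.91 in KO livers, against 12.02, 11.98, 12.01, 12.02 and 12.09 in WT livers. The groups did not overlap, yet the difference of -0.14 (SE 0.046) missed the threshold (limma, adjusted p = 0.111). Signal on a common exon cannot tell which first exon was used. Ugt8a, the ceramide galactosyltransferase of myelin, was dim and differed by -0.02 (limma, adjusted p = 0.914).

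Within the groups, the KO SD was the larger one in 22 of the 37 members, or 59.5%, against 51.4% of all rows. Of the 13 calls 10 held without any 1 array, and 8 held under each of the other settings in which their row was fitted. These were 20 settings, or 19 for the rows of several symbols, which a fit of single-symbol probe sets leaves out. The calls of Gstm4, Gsta4 and Ugt2b38 were those lost with single arrays left out. Once the 3 arrays of widest spread were left out, Gstt1 (adjusted p = 0.0534 in limma) and the shared Ugt3a1 and Ugt3a2 row (adjusted p = 0.0672) missed the threshold. So did Gstm4 (adjusted p = 0.0749 in limma) and Ugt2b38 (adjusted p = 0.0846), whereas Gsta4 stayed called there (adjusted p = 0.0396).

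The supply of the sugar donor and the hydrolysis of glucuronides were examined with 8 measured genes of a list of 9. Of these 1 was higher, 3 were lower and 4 did not pass, and 6 had an unadjusted p under 0.05. Ugdh, which oxidises UDP-glucose to UDP-glucuronic acid, read 11.99, 12.01, 11.70, 11.89 and 12.03 in KO livers, against 12.32, 12.24, 12.26, 12.43 and 12.48 in WT livers. The groups lay apart, and Ugdh fell by 0.42 (SE 0.072; limma, adjusted p = 0.00422). Slc35d1, which carries UDP-glucuronic acid into the endoplasmic reticulum, fell by 0.30 (limma, adjusted p = 0.0252). Gusb, the lysosomal enzyme that hydrolyses glucuronides, fell by 0.24 (limma, adjusted p = 0.0175). Galt, of galactose breakdown, was higher by 0.32 (limma, adjusted p = 0.00101). The Slc35d1 call was lost without KO replicate 5 or any 1 of WT replicates 1, 4 and 5 (adjusted p up to 0.0635), and those of Slc35d1 and Gusb without the 3 arrays of widest spread.

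Glutathione synthesis and reduction gave 1 call. It came from 17 measured genes of a list of 19, of which 7 had an unadjusted p under 0.05. Gss, glutathione synthetase, read 9.70, 9.65, 9.59, 9.74 and 9.74 in KO livers, against 10.06, 9.90, 9.98, 10.07 and 9.92 in WT livers. It fell by 0.30 without overlap (SE 0.051; limma, adjusted p = 0.00412). Gclc and Gclm, the subunits of the rate-limiting step before it, differed by 0.20 (adjusted p = 0.211 in limma) and -0.05 (adjusted p = 0.698). Of 9 export pumps 5 had an unadjusted p under 0.05 in limma, and 1 was called. This was Abcb1b, which averaged 5.85 in KO livers and 6.45 in WT livers and fell by 0.60 (limma, adjusted p = 0.00174). Its KO mean lay below the lowest first quartile of any array (6.00), so the size of this fall is uncertain.

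**Figure D4:**
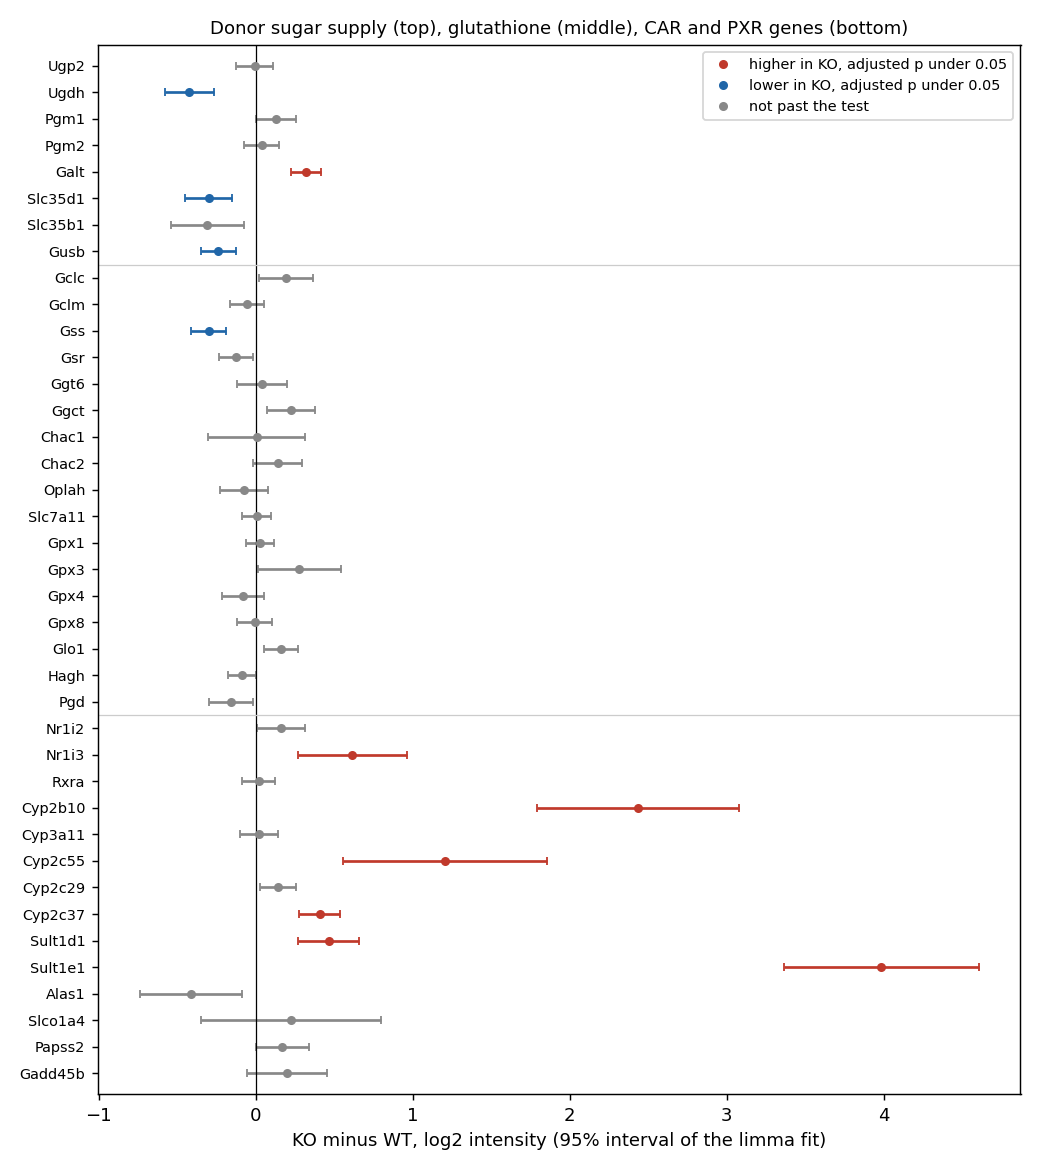
KO minus WT (log2 intensity, horizontal axis) with 95% intervals for 3 gene lists, with called genes marked by colour. These are donor sugar supply with glucuronide hydrolysis, glutathione synthesis and reduction, and CAR and PXR with their targets. Sult1e1 lies farthest to the right at 3.98, and Ugdh lies at -0.42.

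Genes of the receptors that govern many transferases were set beside the members. Of 14 measured genes of CAR and PXR with their targets 6 were higher, none was lower and 8 did not pass. An unadjusted p under 0.05 in limma was found in 10 of the 14. Cyp2b10, the classic CAR target, averaged 12.31 ± 0.64 in KO livers and 9.87 ± 0.50 in WT livers (SD, n = 5 each), a difference of 2.43 (limma, adjusted p = 0.000466). Sult1e1, the estrogen sulfotransferase, was higher by 3.98 (limma, adjusted p = 7.5e-06), and Cyp2c37, of arachidonic acid hydroxylation, by 0.41 (adjusted p = 0.00171 in limma). Sult1e1 was dim in WT livers, with a mean of 5.27, below the lowest first quartile of any array (6.00), so the size of its difference is uncertain. The sulfotransferase Sult1d1 was higher by 0.46 (limma, adjusted p = 0.00844), a call that ended without the 3 arrays of widest spread (adjusted p = 0.112). Nr1i3, the gene of CAR itself, was higher by 0.62 (limma, adjusted p = 0.0428), but the call did not survive the removal of any 1 of the 5 KO arrays or of WT replicates 1 to 3, with adjusted p up to 0.107. Nr1i2, the gene of PXR, differed by 0.16 (adjusted p = 0.257 in limma), and Cyp3a11, its usual target, by 0.02 (adjusted p = 0.923 in limma).

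Of 19 genes of NRF2 and its targets outside the transferases limma called 0, and 3 had an unadjusted p under 0.05. Their median difference was -0.07. Nfe2l2, which encodes NRF2, differed by 0.07 (adjusted p = 0.813 in limma), its inhibitor Keap1 by -0.09 (adjusted p = 0.324), and the quinone reductase Nqo1 by 0.23 (adjusted p = 0.410). Of 9 genes of the aryl hydrocarbon receptor and its targets limma called 0, with 0 at an unadjusted p under 0.05, and Ahr itself differed by 0.07 (adjusted p = 0.879). The 14 measured genes of other GST-fold proteins gave 0 calls in limma and 2 at an unadjusted p under 0.05.

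In a list of other conjugating enzymes, which also holds the hydrolases Bphl and Ephx2, 2 of 13 measured genes were higher and none lower. Among the 13, 4 had an unadjusted p under 0.05 in limma. Bphl, a serine hydrolase, was higher by 0.45 (limma, adjusted p = 0.00104), and the sulfotransferase Sult1b1 by 0.44 (limma, adjusted p = 0.0375). The Sult1b1 call was lost without any 1 of the 5 KO arrays or of WT replicates 1 and 3 (adjusted p up to 0.0941). Of 17 measured genes, which are transcription factors known to act on transferase genes and the growth hormone receptor gene Ghr, 3 were higher and 2 lower. An unadjusted p under 0.05 in limma was found in 7 of the 17. Stat5b and Stat5a, which carry the growth hormone signal, were higher by 0.72 (limma, adjusted p = 6.2e-05) and 0.42 (adjusted p = 0.00174), and Hlf, a clock-driven PAR bZIP factor, by 0.35 (adjusted p = 0.00298). Foxa3 fell by 0.71 (limma, adjusted p = 0.00515), and Onecut1, named after its values were seen, fell by 1.26 (adjusted p = 0.0312), but missed the threshold when KO replicate 1, 3, 4 or 5 or WT replicate 2, 3 or 5 was removed (adjusted p up to 0.0821). Ppara differed by 0.22 (adjusted p = 0.379 in limma) and Hnf4a by 0.01 (adjusted p = 0.954).

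Markers of zonation and cell makeup were set beside these rows, since several transferases are denser in pericentral than in periportal hepatocytes. In bulk liver, fewer cells of a type and less RNA per cell cannot be told apart. Of 11 measured pericentral markers 1 was called, Lect2, higher by 0.23 (limma, adjusted p = 0.0157), and the summed intensity was 57410 to 61674 in KO livers and 55856 to 60874 in WT livers. Of 7 measured periportal markers 2 were called, Hal higher by 0.42 (limma, adjusted p = 0.00171) and Cdh1 lower by 0.44 (adjusted p = 0.00832), with sums of 42141 to 45115 in KO livers and 40702 to 44117 in WT livers. Of 7 cholangiocyte markers, cells in which pi-class transferase is also found, 1 was called, Sox9, higher by 0.62 (limma, adjusted p = 0.0136). Their sum was 924 to 1122 in KO livers, against 819 to 938 in WT livers, while the defining keratins Krt19 and Krt7 differed by -0.02 and -0.11. The calls of Lect2, Cdh1 and Sox9 ended without the 3 arrays of widest spread.

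In the markers of Kupffer cells, sinusoidal endothelium, stellate cells, lymphocytes, neutrophils, erythroid cells and adipocytes limma called 0 genes. At an unadjusted p under 0.05 there were 2 among 10 sinusoidal genes, 2 among 11 stellate genes and 1 among 9 lymphocyte genes, and 0 in the other lists. The part of cell makeup in the transferase differences was not tested.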

How the data were processed

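Liver RNA of 5 Nr1d1-/- and 5 wild-type mice was measured on 10 arrays, grouped by the genotype in the labels. The deposited table holds linear intensity values of 27541 probe sets from 8.93 to 18280, and the submitters' processing notes name RMA and Partek, whose settings are not given in the sources used here. RMA quantile normalization gives arrays nearly equal distributions, so global shifts are largely removed. The deposited arrays still differed somewhat, with medians from 156 to 165 and interquartile ranges from 2.80 to 2.99 in log2. Symbols came from the platform annotation: 21639 probe sets had 1, 1309 several and 4593 none.

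Intensities were taken to log2, with no offset and no filter. The row of highest mean stood for each symbol or shared set. limma 3.58.1 in R 4.3.3 was fitted to 20718 rows without covariates (lmFit, eBayes, two-sided). On simulated data it recovered 48% of changes of 0.25 and 84% of those of 0.5, and 6.78% of its 177 calls were false. Only 50 rows were changed at each size, with independent noise. The real data gave 1142 calls, so these shares need not hold for them. The number of arrays limits the precision. Alternatives were other choices of probe sets, a filter at a mean of 6, an offset of 16, median centring, repeated quantile normalization, other eBayes settings, array weights, and arrays left out. Members, lists and tests were chosen with earlier results of these data known. Named are all members as needed, up to 4 called genes of each list by adjusted p, regulators of transferase genes, Nr1d1 and Arntl. Marker genes named from the cell lists are those called, plus defining ones.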

Additional observations from a re-analysis of the deposited data

Results flagged for a closer look

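Of 134 groups of 5 values examined, an array that stood far from the other 4 of its group was found in 4, and chance gives such a gap in about 5% of groups. Ugt2b38 was highest in WT replicate 2, at 12.00, with the next WT array at 11.78. Ugt2a3 was lowest in KO replicate 3, at 12.54, with the next KO array at 12.75. Cyp2b10 was lowest in KO replicate 3, at 11.19 against 12.34 in the next KO array, and in WT replicate 3, at 9.01 against 9.93 in the next WT array. Left out, WT replicate 2 and KO replicate 3 each ended the Ugt2b38 call.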

How the results depend on the processing

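No paired analysis was possible because the labels give no replicate numbers shared by the groups. A running number in the sample titles covers all WT samples before the KO samples, and its meaning is not given. If it follows an order of handling, that order and genotype cannot be told apart. Under up to 20 other settings, 33 of 1332 single differences changed sign. These belonged to 11 genes, none of them called: Gsto2, Gstm5, Gstt4, Mgst2, Ugt2a3, Ugt2b36, Ugt8a, Hnf4a, Ahr, Nfe2l2 and Nr1d1. In the same comparisons 60 calls were lost and 12 were gained. With each array left out in turn, calls ran from 816 to 1243 over all named rows (1142 with all arrays) and from 10 to 13 over the members (13). Members higher in KO ran from 8 to 10 (9) and members lower in KO from 2 to 5 (4), the 2 without KO replicate 3. Leaving out the 3 arrays of widest spread, chosen after seeing the data, left 536 calls over all rows, 474 of them among the 1142, and 9 members, with fewer samples in each group. The cause of the other changes was not tested. Signals of 4 dim members near background limit what their differences show.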
